A study of Mus musculus with 9 samples.

Results

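The genes of the AP-1 and EGR immediate early factors were followed in mouse bone marrow-derived macrophages. The set holds the FOS genes Fos, Fosb, Fosl1 and Fosl2, the JUN genes Jun, Junb and Jund, the related factor Atf3, and the zinc finger genes Egr1 and Egr2. Members were chosen by gene symbol, and these 10 genes were found among the 55655 rows of each expression table. The study asked how photobiomodulation (PBM), the irradiation of cells with low-power light, changes macrophages that have been driven to an inflammatory state. RNA-seq was performed on 3 groups of 3 libraries each. M0 macrophages came from the marrow of wild type C57BL/6 mice of 6 to 8 weeks and were matured for 7 days with M-CSF at 10 ng/mL, without PBM. M1 macrophages were such cells polarized with lipopolysaccharide (LPS, 100 ng/mL) and interferon-γ (IFN-γ, 20 ng/mL). The M1 + PBM group received the same 2 agents and was also irradiated at 6 mW/cm2 for 7 min every 12 h. Control cells were kept in the same dark box, and RNA was collected 12 h after PBM. Expression is given as FPKM, fragments per kilobase of transcript scaled to the mapped fragments of a library, so levels can be compared between genes of different length. Values are mean ± SD of the 3 libraries of a group.

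AP-1 is a pair of basic leucine zipper proteins. FOS proteins cannot pair among themselves and bind DNA with a JUN partner, whereas JUN proteins pair with each other, with FOS proteins or with ATF proteins. Most of these genes are immediate early genes: MAP kinases activate factors that already sit at their promoters, the transcripts rise within minutes of a stimulus such as LPS and then decay. In macrophages AP-1 takes part in the induction of cytokine, protease and prostaglandin genes, ATF3 is known to limit the response to Toll-like receptor signals, and EGR factors follow M-CSF and growth factor signals during the maturation of monocytes.

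The libraries were first compared by depth and markers. Steps between low FPKM values corresponded to 31220000 to 42950000 fragments, although only 17.4% to 22.2% of low values were whole multiples of a step within 0.05 fragments, where evenly spread values would give 10%. All 8 macrophage markers reached an FPKM of 1 in all 9 libraries. The 8 neutrophil markers summed to 1.44 to 2.44 FPKM in M0, 8.94 to 28.07 in M1 and 6.44 to 15.05 in M1 + PBM. Most of this was S100a8, with up to 2.80 FPKM of Camp. Ly6g and S100a9 were at 0 in all 9 libraries, and Mpo and Elane did not exceed 0.02 FPKM. Whether fragments of the rows at 0 could be counted is not known. The summed markers of dendritic, lymphoid and erythroid cells did not exceed 1.04 FPKM in any library. M0 replicate 3 stood apart. Its 6 M1 markers summed to 23.84 FPKM against 1.14 and 1.26 in the other M0 libraries, and its 6 stromal markers to 187.22 FPKM against 5.48 and 6.86. The stromal sum was 12.73 to 14.42 FPKM in M1 and 22.37, 6.22 and 27.23 FPKM in M1 + PBM. Results that use M0 are therefore given with and without this library, a choice made after the data were seen. M0 also stands in a table of its own, and no source says that both tables were scaled together, so M0 levels are described and not tested.

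The promoters of the members whose levels separated M0 from M1 are shown first, since the sequence elements near their start sites are those through which the pathways named above are known to act. Each line gives the 250 bases before the RefSeq start site on the strand of the gene (GRCm38.p6), with matches to any of the searched motifs in capitals. The windows lie at chr12:85473640-85473889 (Fos, plus strand), chr4:95052223-95052472 (Jun, minus strand), chr8:84978749-84978998 (Junb, minus strand) and chr10:67537619-67537868 (Egr2, plus strand), and none of them touches an annotated exon in GENCODE M21.
Fos: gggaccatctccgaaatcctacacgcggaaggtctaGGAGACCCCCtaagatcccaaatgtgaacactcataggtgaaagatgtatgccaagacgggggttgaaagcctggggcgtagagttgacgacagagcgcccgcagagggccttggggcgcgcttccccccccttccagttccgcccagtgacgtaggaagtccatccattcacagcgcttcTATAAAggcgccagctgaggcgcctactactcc
Jun: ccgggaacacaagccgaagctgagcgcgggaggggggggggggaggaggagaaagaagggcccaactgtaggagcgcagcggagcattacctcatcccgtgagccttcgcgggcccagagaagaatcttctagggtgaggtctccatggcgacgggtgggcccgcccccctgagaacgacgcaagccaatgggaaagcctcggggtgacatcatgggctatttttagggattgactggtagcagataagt
Junb: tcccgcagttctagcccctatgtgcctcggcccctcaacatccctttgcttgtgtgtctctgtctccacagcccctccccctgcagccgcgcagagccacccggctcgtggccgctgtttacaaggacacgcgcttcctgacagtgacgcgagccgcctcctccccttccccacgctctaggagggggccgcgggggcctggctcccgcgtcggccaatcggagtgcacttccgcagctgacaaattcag
Egr2: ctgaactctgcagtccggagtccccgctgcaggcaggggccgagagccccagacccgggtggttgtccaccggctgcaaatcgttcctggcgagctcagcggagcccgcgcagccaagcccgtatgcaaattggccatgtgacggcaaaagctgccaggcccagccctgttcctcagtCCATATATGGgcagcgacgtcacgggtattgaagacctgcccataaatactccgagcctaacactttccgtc

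The 8 motifs were searched on both strands, and each is given with its share among 32851 promoter windows of the same length. They were the AP-1 element TGANTCA (6.75%), the cyclic AMP element TGACGTCA (1.55%), the EGR site GCGNGGGCG (4.7%), the ETS site CCGGAAGT (2.88%), the STAT element TTCNNNGAA (7.02%), the TATA box TATAAA (12.4%), the CArG box bound by serum response factor (1.47%) and the kappaB site (3.9%). In the Fos window, the capitals mark a kappaB match 214 to 205 bases before the start and a TATA box 33 to 28 bases before it. The serum response element for which Fos is known lies further upstream than this window. RefSeq gives 5 start sites for Egr2. In the window shown, a CArG box lies 72 to 63 bases before the start, the 2 windows that overlap it hold the same box, the window upstream of these holds another CArG string, and the most upstream window holds no match. The Jun and Junb windows hold none of these letter strings. RefSeq windows were found for 8 of the 10 members, the exceptions being Fosl1 and Egr1. Among the windows not printed, that of Fosl2, which lies within an annotated first exon, holds an EGR site 79 to 71 bases before the RefSeq start and a kappaB match, that of Fosb holds one of each, and those of Atf3 and Jund hold no match.

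In mature M0 macrophages Atf3 had the highest level of the set, followed by Junb, Fos, Jun and Jund, and Fosb had the lowest. The mean FPKM was 112.7 ± 47.4 (SD, n = 3) for Atf3, 40.7 ± 24.9 for Junb, 37.2 ± 24.6 for Fos, 30.0 ± 2.5 for Jun and 24.1 ± 3.5 for Jund. The ranges of neighbours among these 5 overlapped. In M1 macrophages Atf3 (112.1 ± 27.5 FPKM) and Junb (94.2 ± 20.2 FPKM) stood above all other members, and Jund followed at 20.3 ± 3.1 FPKM. The ranges of Atf3 and Junb overlapped, and those of Junb and Jund did not. The order of these 3 was the same in M1 + PBM, with 86.6 ± 9.5 FPKM for Atf3, 70.7 ± 9.1 for Junb and 17.1 ± 1.6 for Jund. Fosb and Fosl1 were the lowest members of all 3 groups. Upper estimates from transcript length and the estimated depth put at most 13.4 fragments behind Fosb and 41.7 behind Fosl1 in any library.

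**Figure D1:**
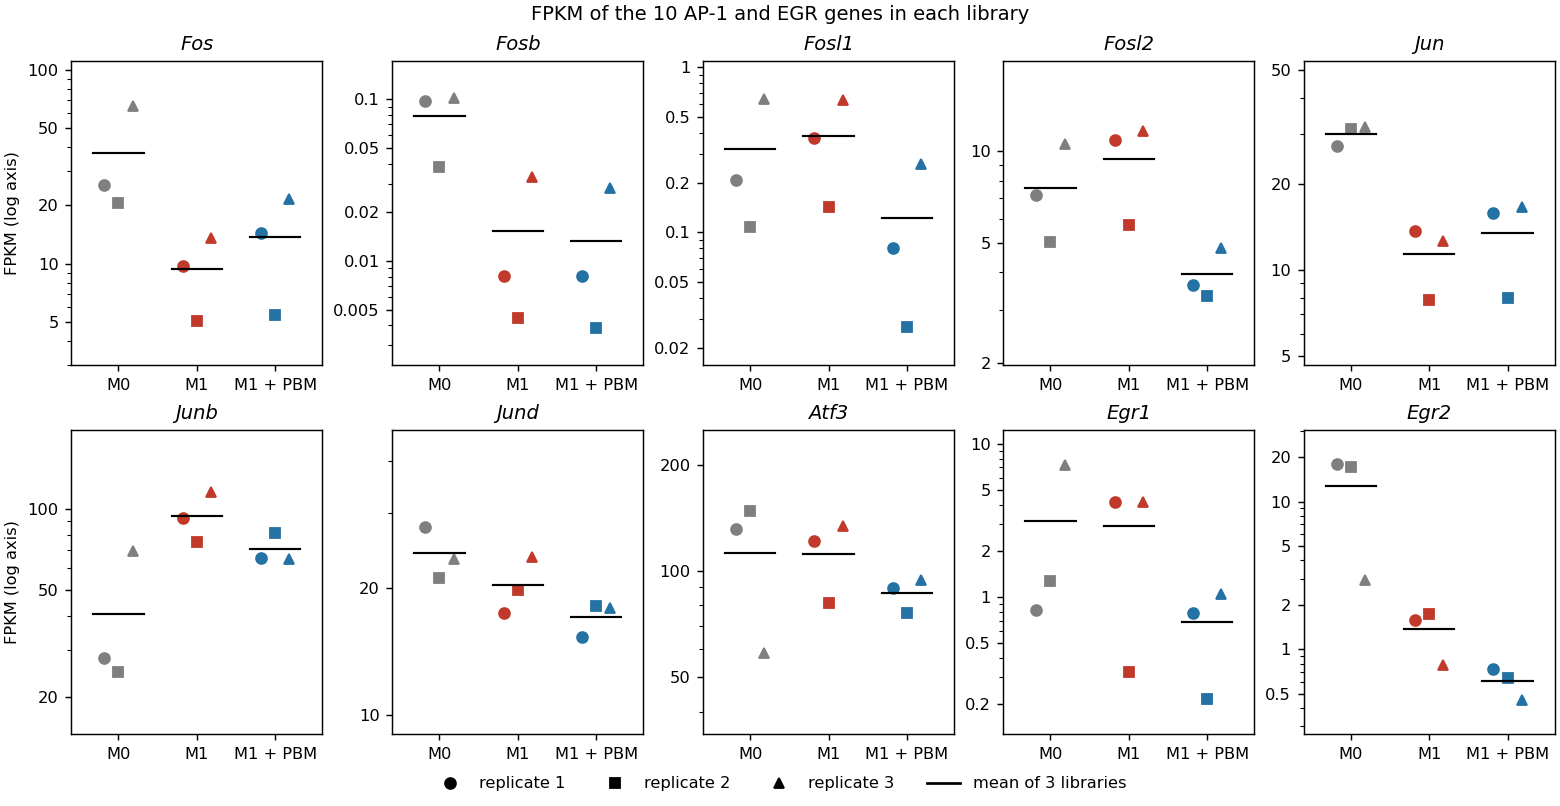
FPKM on a log axis for each of the 10 genes in the 3 M0, 3 M1 and 3 M1 + PBM libraries; symbols give the replicate number and lines the mean of 3 libraries. The Fosl2 levels of M1 + PBM (3.34 to 4.81 FPKM) lie below all those of M1 and M0, and those of Egr2 fall from 2.92 to 18.01 FPKM in M0 to 0.453 to 0.732 FPKM in M1 + PBM.

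The first comparison was that of M1 with M0, which shows where the factors stood in polarized cells that received no light. Junb was higher in M1, while Fos, Jun and Egr2 were lower, and in these 4 genes no M1 library reached the range of the M0 libraries. Of the 10 members, 8 reached the minimum of 1 FPKM in 3 or more of these 6 libraries. Of all 13593 rows that passed it, 15.3% were higher in M1 without overlap and 51.5% were lower, so the 1 higher and 3 lower members of 8 were not above the shares of genes in general. After median-of-ratios scaling these shares were 32.5% and 24.6% with the same 4 members, so the reading for the lower members turned with the scaling. Without M0 replicate 3 the shares were 18.3% and 58.2%. The median difference of all these rows, M1 minus M0 in log2(FPKM + 1), was -0.35, and it was 0.05 after median-of-ratios scaling. Differences below are to be read against the first of these medians. M0 and M1 samples are whole cultures, in which fewer cells of a kind and less RNA per cell cannot be told apart.

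Junb, a JUN protein with weaker activity than Jun on many promoters, was the member that was higher in M1 without overlap. Its FPKM was 27.9, 24.8 and 69.4 in M0 and 92.0, 75.2 and 115.4 in M1. The lowest M1 library was thus only slightly above M0 replicate 3 and far above both other M0 libraries. The M1 level was 2.32-fold that of M0, and 3.58-fold without M0 replicate 3. On the log2(FPKM + 1) scale the difference was 1.33, or 1.78 without that library. Junb overlaps the gene of peroxiredoxin 2 (Prdx2) on the opposite strand, whose own level ranged from 28.25 to 49.64 FPKM. The libraries were strand-specific by their labels, but whether counting used the strand is not given in the sources used here, so Junb levels are uncertain to that extent.

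Fos and Jun, the founding pair of AP-1, were lower in M1. Fos had 25.6, 20.5 and 65.5 FPKM in M0 and 9.69, 5.08 and 13.6 FPKM in M1. The M0 level was 3.94-fold that of M1, and 2.44-fold without M0 replicate 3, the library with the most Fos. Jun had 27.1, 31.2 and 31.7 FPKM in M0 and 13.7, 7.89 and 12.6 FPKM in M1. Its M0 libraries lay close together, M0 replicate 3 included, and every one was about 2 or more times as high as any M1 library. The Jun differences of M1 minus M0 were -1.35 and, without M0 replicate 3, -1.31 in log2(FPKM + 1), and -0.87 after median-of-ratios scaling. Those of Fos were -1.78, -1.29 and -1.30 in the same order. The antisense gene Junos, which overlaps Jun, had at most 0.30 FPKM in any library.

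Egr2, a zinc finger factor of maturing monocytes and macrophages, had the most uneven levels between the groups. It stood at 18.01, 17.1 and 2.92 FPKM in M0, at 1.59, 1.74 and 0.785 FPKM in M1, and at 0.732, 0.634 and 0.453 FPKM in M1 + PBM. The 3 groups did not overlap, and M0 replicate 3 was by far the lowest of the M0 libraries. The M0 level was 9.27-fold that of M1, and 12.8-fold without M0 replicate 3. The log2(FPKM + 1) difference was -2.25, or -2.995 without that library.

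The other members had overlapping ranges in M0 and M1. Fosl2 differed by 0.28 in log2(FPKM + 1), Atf3 by 0.07, Egr1 by 0.02 and Jund by -0.24, and Jund turned to 0.24 after median-of-ratios scaling. Without M0 replicate 3 these differences were 0.52, -0.34, 0.69 and -0.26. The sign for Atf3 also turned when M1 replicate 1 (-0.004) or M1 replicate 3 (-0.075) was left out. That for Egr1 turned when M0 replicate 1, M0 replicate 2, M1 replicate 1 or M1 replicate 3 was left out (-0.40 to -0.24). No direction can be given for either gene. Fosl1 differed by 0.07, with a level near or under 0.64 FPKM everywhere. Fosb was lower in M1 without overlap, at 0.0382 to 0.101 FPKM in M0 and 0.0044 to 0.0332 FPKM in M1, but the few fragments behind it do not carry a comparison.

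**Figure D2:**
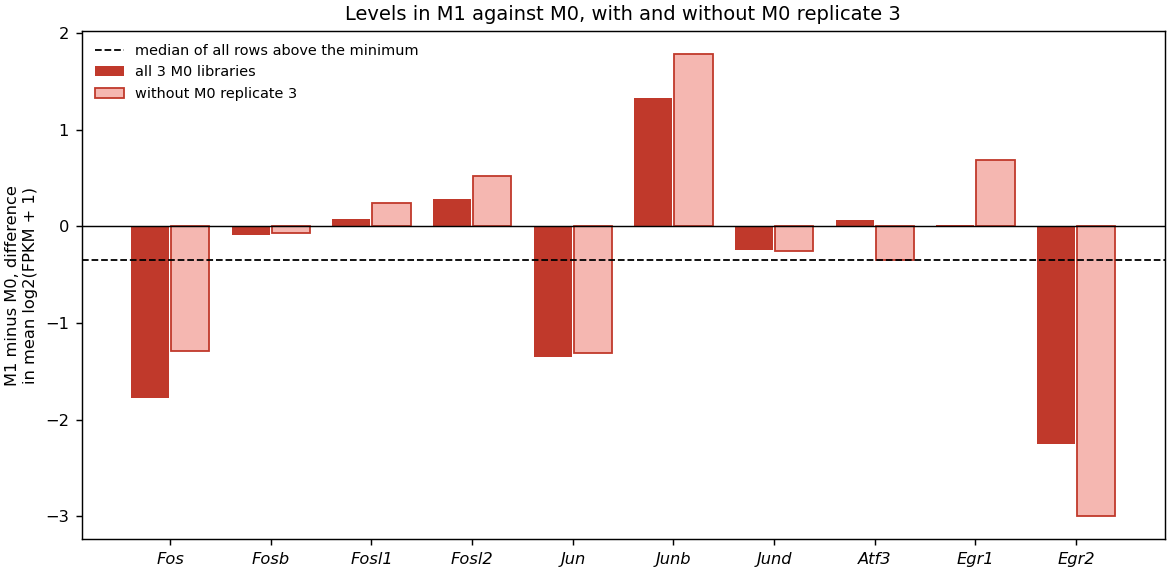
Difference in mean log2(FPKM + 1) between M1 and M0 for each gene, with all 3 M0 libraries (dark bars) and without M0 replicate 3 (light bars); the dashed line is the median of all 13593 rows above the minimum. Junb stands at 1.33 and 1.78, Fos, Jun and Egr2 lie well under the dashed line, and Atf3 changes sign.

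M0 replicate 3 differed from the other M0 libraries in most members of the set. Of the 10 members, 7 had their highest M0 level in this library, and Atf3 and Egr2 had their lowest. Relative to the mean of M0 replicates 1 and 2, Egr1 was 6.91-fold, Fosl1 4.09-fold, Fos 2.84-fold, Junb 2.63-fold and Fosl2 1.73-fold higher, whereas Jun (1.09-fold) and Jund (0.96-fold) were close to it. Atf3 was 2.38-fold lower and Egr2 6.01-fold lower. The M1 and stromal markers given above were raised in the same library, and their part in these levels was not tested.

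The make-up of the JUN and FOS transcript pool was then described, because FOS proteins need a JUN partner. Junb gave 24.05%, 24.13% and 34.47% of the summed FPKM of the 7 JUN and FOS genes in M0, and 63.8%, 66.1% and 65.0% in M1. Its share in M1 varied by little between libraries and lay far above each M0 library. The Fos share was 22.1%, 19.96% and 32.5% in M0 and 6.73%, 4.46% and 7.64% in M1. JUN transcripts outnumbered FOS transcripts per length in every library. The ratio of their summed FPKM was 2.51, 3.004 and 1.62 in M0 and 5.87, 9.41 and 5.86 in M1, without overlap. In M1 + PBM the Junb share was 57.1%, 69.9% and 51.6% and the ratio was 5.33, 12.2 and 3.75, so both measures spread more widely than in M1 and overlapped with it. These shares are of transcripts and say nothing of protein.

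**Figure D3:**
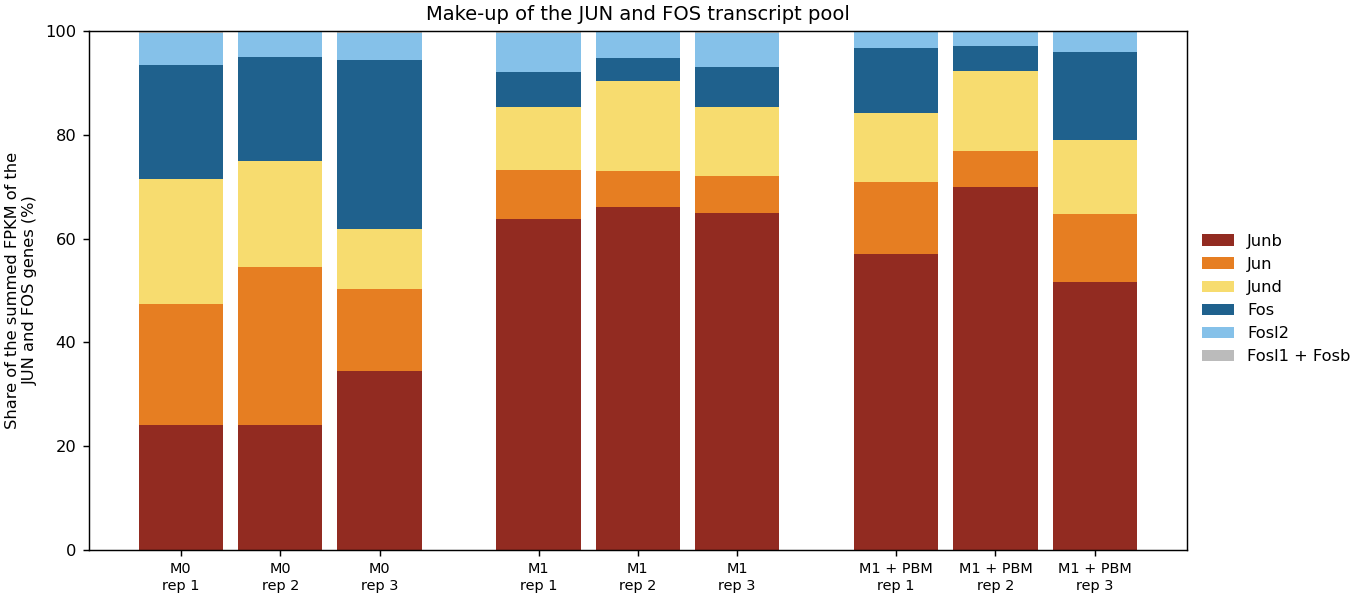
Share of each gene (%) in the summed FPKM of the 3 JUN and 4 FOS genes, 1 bar for each library. Junb fills 63.8% to 66.1% of the bar in M1 and 24.05% to 34.47% in M0, and the Fos share in M1 + PBM ranges from 4.67% to 17.0%.

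The second comparison was that of M1 + PBM with M1, the question of the study. Of the 7 members that reached 1 FPKM in 3 or more of the 6 libraries, Fosl2 fell and no other member passed the thresholds of the study, which are an unadjusted p up to 0.05 together with a change of 1 log2 unit or more. In all 12238 rows tested with limma, 0.237% were lower by these thresholds. The study reported many more genes past them from its own analysis, most of them upregulated. Shares and ranks given here are those of the limma fit. For 1 of the 7, every irradiated library lay below every M1 library, against 2.52% of all rows. By unadjusted p alone, 1 of the 7 members passed, against 4.44% of all rows. After Benjamini-Hochberg adjustment over all rows, limma called 0 members and 0.00817% of all rows. The labels give a replicate number to each M1 and M1 + PBM library but state no pairing. When that number entered the fit as a block, 4 members had an unadjusted limma p up to 0.05, against 8.07% of all rows. These were Fosl2, Egr1, Fos and Atf3, of which Fosl2 and Egr1 also passed the fold threshold, but the adjusted p was 0.577 for each of them. The median log2 fold change was -0.34 over the 7 members and 0.06 over all rows.

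Fosl2, which encodes the FOS protein FRA-2, had 10.9, 5.70 and 11.7 FPKM in M1 and 3.63, 3.34 and 4.81 FPKM in M1 + PBM. The highest irradiated library lay below the lowest M1 library, and below all M0 libraries, whose lowest was 5.01 FPKM. The mean was 9.43 ± 3.25 FPKM in M1 and 3.93 ± 0.77 FPKM in M1 + PBM (SD, n = 3), a 2.40-fold lower level. The log2 fold change was -1.04 ± 0.26 (SE), with a 95% interval of -1.67 to -0.41, an unadjusted limma p of 0.0065 and an adjusted p of 0.90. It was lower in 3 of 3 pairs of equal replicate number, with log2 differences of -1.36, -0.63 and -1.13. Among the 29 rows that this limma fit called lower at the thresholds of the study, Fosl2 ranked 25th by size. The fold change lay close to the threshold of 1, and it was -0.92 without M1 replicate 1, -0.87 without M1 replicate 3, -1.0, just short of the threshold, without M1 + PBM replicate 1 and -0.95 without M1 + PBM replicate 2. The sum of the 6 M1 markers ranged from 513.04 to 957.78 FPKM in M1 and from 447.45 to 484.95 FPKM in M1 + PBM, also without overlap. Of these markers, 5 had a lower and 1 a higher mean log2(FPKM + 1) with PBM. By unadjusted limma p, 3 were lower, against 4.44% of all rows in either direction. The part of the M1 state in the Fosl2 level was not tested.

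Among the other FOS genes, Fos had the opposite sign. Fos had 9.69, 5.08 and 13.6 FPKM in M1 and 14.4, 5.42 and 21.6 FPKM in M1 + PBM. Replicate 2 was low in both groups, and the ranges overlapped widely. The log2 fold change was 0.41 ± 0.52 (SE), with a 95% interval of -0.83 to 1.66 and an unadjusted limma p of 0.453. Leaving out single libraries moved it to between 0.02, when M1 + PBM replicate 3 was dropped, and 0.93, when M1 + PBM replicate 2 was, and to 0.07 when M1 replicate 2 was. Within pairs it was higher in 3 of 3, and with the block the SE was 0.13 and the unadjusted limma p 0.0286. The summed stromal markers given above were likewise low in replicate 2 and high in replicates 1 and 3 of M1 + PBM. In M1 the sums differed little, from 12.73 to 14.42 FPKM. There Col1a1, Col1a2, Dcn and Lum were also lowest in replicate 2, and Col3a1 was lowest in replicate 1. Pdgfrb was highest in replicate 2 of M1, at 2.24, 4.62 and 2.66 FPKM. In M1 + PBM, only Pdgfrb of the list went the other way, at 1.71, 2.99 and 1.95 FPKM. The part of these markers in the Fos level was not tested. Fosl1, which encodes FRA-1, had 0.371, 0.142 and 0.631 FPKM in M1 and 0.0806, 0.0266 and 0.258 FPKM in M1 + PBM. It was under the minimum and lower in 3 of 3 pairs, and the two-sided exact permutation test gave p = 0.2, where 0.1 is the smallest that 3 against 3 allows. Fosb was at 0.0044 to 0.0332 FPKM in M1 and 0.0038 to 0.0281 FPKM in M1 + PBM, with an exact permutation p of 0.6.

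None of the JUN genes passed the thresholds. Jun had 13.7, 7.89 and 12.6 FPKM in M1 and 15.9, 8.00 and 16.7 FPKM in M1 + PBM. It was higher in 3 of 3 pairs, with a log2 fold change of 0.20 ± 0.31 (SE), a 95% interval of -0.56 to 0.95 and unadjusted limma p-values of 0.549 and, with the block, 0.108. Without M1 replicate 2 the fold change was -0.03. Junb had 92.0, 75.2 and 115.4 FPKM in M1 and 65.6, 81.1 and 65.3 FPKM in M1 + PBM. Its replicates 1 and 3 were lower with PBM and replicate 2 was higher, and the log2 fold change was -0.40 ± 0.18 (SE), with a 95% interval of -0.83 to 0.04 and an unadjusted limma p of 0.069. Jund, the JUN gene known for steady expression, had 17.4, 19.8 and 23.6 FPKM in M1 and 15.3, 18.1 and 17.9 FPKM in M1 + PBM. Its log2 fold change was -0.23 ± 0.14 (SE), with a 95% interval of -0.56 to 0.10, so that a change of more than 1 log2 unit in either direction lay outside the interval for Jun, Junb and Jund. An antisense gene, Gm11175, overlaps Jund and had at most 0.36 FPKM.

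Atf3, which is induced by Toll-like receptor signals and pairs with JUN proteins, had 121.3, 81.2 and 133.8 FPKM in M1 and 89.6, 76.0 and 94.3 FPKM in M1 + PBM. It was lower in 3 of 3 pairs, with less difference in replicate 2 than in the others, and the ranges overlapped. The log2 fold change was -0.34 ± 0.21 (SE), with a 95% interval of -0.84 to 0.15 and an unadjusted limma p of 0.143. With the block the SE was 0.11 and the unadjusted limma p 0.0263.

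Egr1, the EGR gene that MAP kinases activate through ELK factors and serum response factor, had 4.16, 0.324 and 4.19 FPKM in M1 and 0.790, 0.216 and 1.04 FPKM in M1 + PBM. M1 replicate 2 lay below 2 of the irradiated libraries, which made the groups overlap, while the other M1 libraries were about 4 times as high as any irradiated one. The mean was 2.89 ± 2.22 FPKM in M1 and 0.681 ± 0.421 FPKM in M1 + PBM, a 4.25-fold lower level. The log2 fold change was -1.0 ± 0.55 (SE), with a 95% interval of -2.33 to 0.32 and an unadjusted limma p of 0.116. With a pseudocount of 0.1 the fold change was -1.53, with an unadjusted limma p of 0.172. It was lower in 3 of 3 pairs, with log2 differences of -1.53, -0.12 and -1.35, and with the block the SE was 0.30 and the unadjusted limma p 0.0223, past the thresholds of the study by a margin of the fourth decimal (-1.0001). Without M1 replicate 2 the fold change was -1.66, with an unadjusted limma p of 0.000569, and without M1 + PBM replicate 2 it was -0.78, with one of 0.262. Upper estimates put 41.6 to 172.3 fragments behind Egr1 in the irradiated libraries and 53.3 behind it in M1 replicate 2.

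Egr2 reached 1 FPKM in only 2 of the 6 libraries and was therefore not in the limma fit. With the M1 and M1 + PBM values given above, each irradiated library lay below each M1 library, and the level was 2.26-fold lower with PBM. The two-sided exact permutation test gave p = 0.1, the smallest that 3 against 3 allows. Of the 7 tested members, 4 were lower with PBM in 3 of 3 pairs, against 10.1% of all rows tested, and Fos and Jun were higher in 3 of 3, against 25.5%. The 3 members under the minimum, Fosb, Fosl1 and Egr2, were also lower in 3 of 3, Fosb by little and with few fragments behind it.

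**Figure D4:**
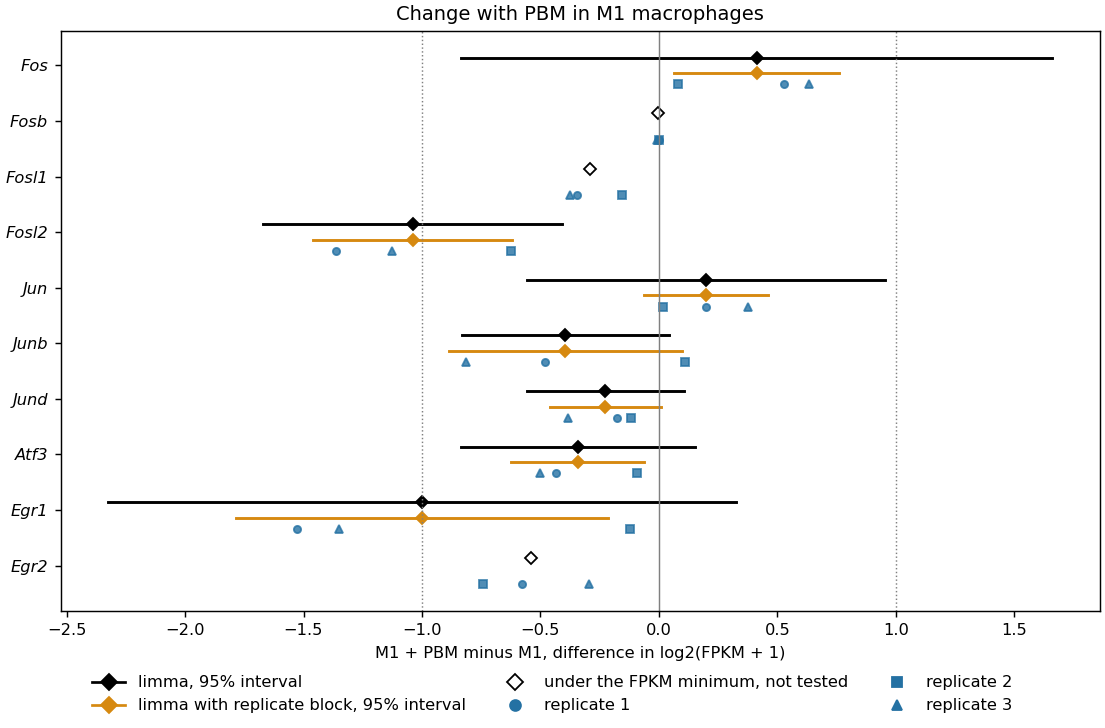
Difference in log2(FPKM + 1) between M1 + PBM and M1 for each gene; filled diamonds with bars are limma estimates with 95% intervals, without and with the replicate block, open diamonds are members under the minimum, and small symbols are the 3 replicate pairs. The interval of Fosl2, from -1.67 to -0.41, lies below 0 in both fits, and that of Fos, from -0.83 to 1.66, narrows with the block to 0.07 to 0.76.

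Against M0, the irradiated cells shared some of the differences of M1. M1 libraries entered this description only through the minimum, which was taken over M0 and M1 and not over irradiated libraries. Egr2 was under 1 FPKM in every irradiated library. Of the members above the minimum, Jun, Jund, Fosl2 and Egr2 were lower in M1 + PBM than in M0 without overlap, with and without M0 replicate 3. Of all rows, 47.3% were lower in this way and 15.6% higher, so 4 of 8 lower members were close to the general share. Without M0 replicate 3, Atf3 was lower without overlap as well. The lower members were then 5 of 8, beside 55.2% of all rows lower and 18.8% higher. The M0 level of Egr2 was 20.9-fold and that of Jun 2.22-fold the level in M1 + PBM. Junb was 1.74-fold higher in M1 + PBM than in M0 with overlap, and 2.68-fold higher without overlap when M0 replicate 3 was left out. Fos overlapped between M0 and M1 + PBM in both cases.

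The replicates of M1 and M1 + PBM varied together in most of these genes. Of the 7 tested members, 5 were lowest in replicate 2 of both groups, against 15.8% of all rows tested, and 4 were highest in replicate 3 of both, against 19%. Replicates 2 and 3 also stood at opposite ends of the first principal component of all rows tested, which held 43.8% of the variance. Fos deviated from its group mean by 0.12, -0.69 and 0.57 in log2(FPKM + 1) in M1 and by 0.24, -1.03 and 0.79 in M1 + PBM. Egr1 deviated by 0.65, -1.31 and 0.66 in M1 and by 0.12, -0.43 and 0.31 in M1 + PBM. Over the 6 libraries the deviations of Egr1 and Atf3 had a Pearson r of 0.98 and those of Fos and Jun one of 0.94, whereas Egr2 was negative with each of the other 9 members. All 45 pairs over these 6 libraries ranged from -0.92 to 0.98 with a median of 0.57. Over 9 libraries, with M0 included, r was -0.24 for Egr1 and Atf3 and 0.78 for Fos and Jun. For Egr2 and Atf3 it was then 0.74. The 6 points share replicate numbers between groups, so these values describe the libraries and carry no p.

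**Figure D5:**
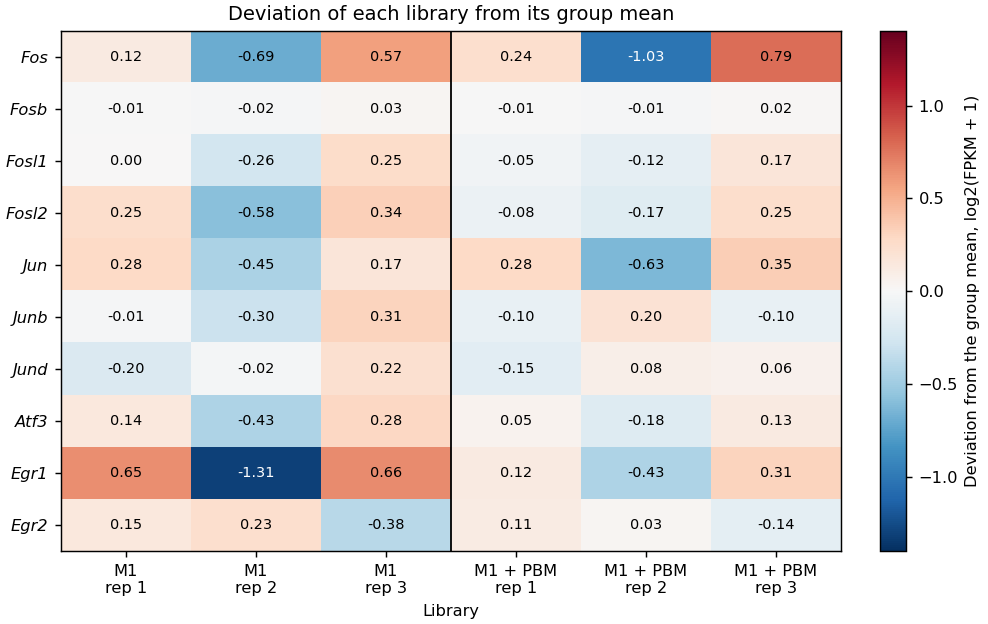
Deviation of each library from its group mean in log2(FPKM + 1), with genes in rows, the 6 M1 and M1 + PBM libraries in columns, red for above and blue for below the mean. Replicate 2 is blue in both groups for Fos (-0.69 and -1.03), Jun (-0.45 and -0.63) and Egr1 (-1.31 and -0.43), and Egr2 runs the other way in replicate 3 (-0.38 and -0.14).

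The other genes of the pathway were taken from 5 lists of textbook members, each read beside the rows tested above. In M1 against M0, 15.3% of all rows were higher and 51.5% lower without overlap, or 18.3% and 58.2% without M0 replicate 3. After median-of-ratios scaling these shares were 32.5% and 24.6%, and the lists were not counted on that scale. Some listed genes, among them Il6 and Batf2, stayed under 1 FPKM in M0 and passed the minimum only through M1. Of 21 tested kinases and factors of the MAP kinase route to these promoters, none passed the thresholds of the study with PBM by limma, and the median log2 fold change was -0.02. At an unadjusted limma p of at most 0.05, 2 of the 21 were higher and 0 lower, against 4.44% of all rows in either direction. These were Mapk14, the p38α kinase (0.52 ± 0.21, SE), and Map3k1, a kinase upstream of JNK (0.40 ± 0.12). In M1 against M0, 6 of the 21 were higher and 8 lower without overlap, or 8 and 9 without M0 replicate 3. Map2k1, which encodes the ERK kinase MEK1, was at 65.7 ± 4.2 FPKM in M1 and 26.2 ± 2.6 FPKM in M0, and Map3k1 at 8.12 ± 0.65 and 21.2 ± 5.0 FPKM.

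Of 18 tested bZIP factors outside the set, 2 were lower and 2 higher with PBM by unadjusted limma p alone. The share of all rows was 4.44% in either direction. Of the 18, 9 had a lower and 9 a higher mean. The median log2 fold change was -0.01. The small MAF gene Maff had a log2 fold change of -0.67 ± 0.26 (SE) with overlap. In M1 against M0, 7 of 18 were higher and 4 lower without overlap, or 10 and 5 without M0 replicate 3. Batf and Batf2, which pair with JUN proteins, stood at 2.37 ± 1.32 and 0.332 ± 0.128 FPKM in M0 and at 52.2 ± 13.4 and 10.6 ± 0.9 FPKM in M1. With PBM they were at 47.6 ± 4.3 and 9.59 ± 1.12 FPKM.

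Only 2 of the 4 EGR and NAB genes outside the set were tested. Nab1 and Nab2, corepressors that bind EGR proteins, had log2 fold changes of -0.01 ± 0.14 and -0.06 ± 0.16 (SE) with PBM. Nab1 was higher in M1 than in M0 without overlap, at 24.7 ± 3.9 against 16.0 ± 3.8 FPKM. Of 17 other immediate early genes tested, none passed the thresholds with PBM. At an unadjusted limma p of at most 0.05, 3 were lower and 1 higher, against 4.44% of all rows in either direction. Ier3, a survival gene of this class, had 72.3, 35.1 and 58.8 FPKM in M1 and 28.0, 30.0 and 26.6 FPKM in M1 + PBM, a log2 fold change of -0.89 ± 0.26 (SE) without overlap. Csrnp1 had one of -0.77 ± 0.58. In M1 against M0, 5 of 18 were higher and 4 lower without overlap, or 8 and 6 without M0 replicate 3, and Gadd45b stood at 68.3 ± 19.0 against 15.7 ± 4.8 FPKM.

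Of 21 tested genes that are textbook targets of AP-1 and EGR factors in macrophages, 5 fell past the thresholds with PBM and none rose, against 0.237% of all rows lower. With the block, 11 of the 21 had an unadjusted limma p up to 0.05, all of them lower, against 8.07% of all rows in either direction. The mean was lower for 19 of them, and the median log2 fold change was -0.48. The 5 were the urokinase receptor gene Plaur (-1.09 ± 0.25, SE), the cytokine genes Il6 (-2.29 ± 0.47) and Il1b (-1.07 ± 0.26), the prostaglandin synthase gene Ptgs2 (-2.16 ± 0.61) and Inhba, which encodes an activin subunit (-2.08 ± 0.51). The study named Il6, Ptgs2 and F3 of this list from these libraries, so the count is not independent evidence of a direction. The adjusted limma p was 0.90 for all 5. These genes also answer to NF-κB and to interferon signals, and the part of AP-1 in them was not tested. In M1 against M0, 13 of 21 were higher and 3 lower without overlap, or 16 and 4 without M0 replicate 3. Il1b and Ptgs2 stood at 915.3 ± 140.1 and 172.8 ± 76.6 FPKM in M1 and at 8.55 ± 14.3 and 1.51 ± 2.38 FPKM in M0, where replicate 3 held 25.1 and 4.26 FPKM and both other libraries under 1 FPKM.

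For each member that reached 1 FPKM in at least 3 of the 9 libraries, the rows with the most similar pattern over all 9 libraries were listed by Pearson r of log2(FPKM + 1), among 13915 rows. The 9 points include M0 from its own table, and differences between groups weigh heavily in them. Junb was most like Ier3 (r = 0.98) and Marcksl1 (0.98), Fos was most like Adam15 (0.99) and Mus81 (0.98), and Jun was most like Camk1d (0.97) and Slc12a7 (0.97). Egr2 was most like Gm15760 and Dnmt3aos (0.99 each), and Egr1 was most like Arf2 and Chmp3 (0.93 each). Fosl2 reached only 0.91 with Ero1l and 0.91 with Slc16a1. Atf3 was most like AC123927.2 (0.96) and Rab8b (0.93), and Jund was most like Ppp2r2d and Mir5125 (0.94 each).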

How the data were processed

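RNA-seq was performed on 9 libraries of mouse macrophages. The authors deposited FPKM values in 2 tables of 55655 rows, one for M0 and one for M1 and M1 + PBM. The methods name TRIzol extraction, HiSeq sequencing and Cufflinks methods, and the submitters' processing notes list Bowtie 0.12.2 and mm9, whereas 320 rows carry MSTRG names. Any filter, the annotation and the use of strand in counting are not given in the sources used here. Groups and replicate numbers were taken from the labels. The study states that the experiment was repeated independently, but neither it nor the labels tie the replicates to separate animals or cultures, so p-values measure the spread between these samples, which may be technical. Symbols came from GENCODE M21 and promoters from RefSeq on GRCm38.p6, which is not the build of the notes, so no coordinates were joined to the FPKM values.

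For M1 + PBM against M1, limma 3.58.1 in R 4.3.3 (eBayes with trend) was fitted to log2(FPKM + 1) of the 12238 rows in which 3 or more of the 6 libraries reached 1 FPKM. A fold change on this scale understates the change of low genes. Adjusted p-values are Benjamini-Hochberg values over all rows. Members under the minimum were given a two-sided exact permutation test. M1 and M0 were compared without a test, and this comparison shares the M1 libraries with the first. Median-of-ratios scaling, quantile normalization, a pseudocount of 0.1, other minimums, a fit without trend, a replicate block and leaving out each library were tried as alternatives. Equal replicate numbers deviated together (correlations of 0.157, 0.469 and 0.462 over genes, against -0.491 to 0.033 for unequal numbers), so the block is given beside results. The code was tested on simulated data.

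Members and lists were chosen with earlier results of these data known. Beside the members, the text names from each list the genes past the thresholds of the study, the 2 with the largest change with PBM and the 2 with the largest difference between M1 and M0, and for each member the 2 most similar rows. In the target list, Il6 and Ptgs2 had the largest change with PBM, and Il1b and Ptgs2 the largest difference between M1 and M0. Prdx2, Junos and Gm11175 were named for their overlap with members. A gene that this rule would name is not reported here.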

Additional observations from a re-analysis of the deposited data

How the results depend on the processing

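As reported, 1 member was past the thresholds of the study, and the count was 2 with the replicate block (Fosl2 and Egr1) and 0 to 2 when single libraries were left out. It was 0 without M1 replicate 1, without M1 replicate 3, without M1 + PBM replicate 1 and without M1 + PBM replicate 2, and 2 without M1 replicate 2. In all of these fits Fosl2 kept an unadjusted limma p of at most 0.05, and its log2 fold change ranged from -1.33 to -0.87. Jun ranged from -0.025, without M1 replicate 2, to 0.512, without M1 + PBM replicate 2, and the cause was not tested. No member passed at an adjusted p under 0.05 in any fit. Egr1 fell under the minimum, and so had no value, with a mean FPKM of at least 5, with median-of-ratios scaling and without some single libraries. With the block, Fos and Atf3 also had an unadjusted limma p up to 0.05. The same held for Egr2 with no minimum FPKM. Without M1 replicate 2, Junb (0.0198) and Atf3 (0.00936) had one as well, and without M1 + PBM replicate 2 Junb did (0.0485). In M1 against M0, 4 members were without overlap, or 5 with no minimum FPKM (adding Fosb), and 4 to 5 when single libraries were left out, where Fosl2 joined as higher without M1 replicate 2 and Jund as lower without M1 replicate 3. The share of rows higher and lower without overlap moved from 15.3% and 51.5% to 32.5% and 24.6% with median-of-ratios scaling. Upper estimates from transcript length and the estimated depth put 13.4 fragments behind Fosb and 41.7 behind Fosl1 in the library with the most.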
